A study of Mus musculus with 6 samples.

Results

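The regions described here are H3K27ac regions called after CD at the start or end of a protein-coding gene. Each overlaps a region called after DMSO and has no Flag-Rxra peak on it. They were chosen from the list of H3K27ac regions called after CD, on chromosomes 1 to 19, X and Y. A region was taken when it overlapped a DMSO region by 1 bp or more, reached the window within 1 kb of an annotated gene start or end, and overlapped no peak of either Flag-Rxra replicate. The DMSO region did not itself have to reach that window, and at Pdgfrb none did. Of 104437 CD regions, 14558 overlapped a DMSO region, 2559 of these reached a gene start or end, and 865 of those overlapped no Flag-Rxra peak. The 865 regions reached the windows of 950 of 21883 protein-coding genes, or 4.34%. The criteria rest on called peaks and on annotated gene starts and ends, so what follows describes the chosen regions and is given without tests.

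H3K27ac is an acetyl group on lysine 27 of histone H3, placed by the acetyltransferases p300 and CBP. It marks active promoters and enhancers, and at promoters it lies on the nucleosomes that flank the nucleosome-depleted start. Rxra is the retinoid X receptor alpha, a nuclear receptor that binds DNA as a dimer with partners such as the LXR, PPAR and RAR receptors. Housekeeping promoters, often CpG-rich, are active in nearly every cell type.

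CUT&Tag, in which an antibody directs a transposase to its target, was done on mouse embryonic fibroblasts labelled OG2X129. The groups were H3K27ac after CD (2 samples), H3K27ac after DMSO (2 samples) and Flag antibody after overexpression of Flag-Rxra (2 samples), all under chemical reprogramming per the labels. CD is taken from the series title to be CD3254, an RXR agonist. The labels give no day, no separate cultures and no treatment for the Flag-Rxra cells. Both samples of an H3K27ac treatment share 1 list, so there is no error between replicates, and no read counts were used, so the depth is unknown. The second list held 75482 DMSO regions, and Flag-Rxra had 28243 (replicate 1) and 45999 peaks (replicate 2). Which list is which replicate rests on the sample descriptions, since the peak names inside carry another code than the sample titles. Among 36 fibroblast and mesenchymal genes, 15 had a CD region and 15 a DMSO region at a gene start or end, or 41.7% in each list, where 38.3% of all genes had a CD and 35.8% a DMSO region. Vim, Twist1, Sparc and Col3a1 had a region in both lists, while Col1a1, Col1a2, Thy1 and Prrx1 had none in either. Of 10 genes each, 4 macrophage, 4 endothelial, 2 neural, 1 muscle and 2 keratinocyte markers had a CD region, against 3, 3, 1, 1 and 1 with a DMSO region.

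The promoters of 7 of these genes show what lies under the regions and beside them. They are RefSeq sequences of GRCm38.p6, the assembly that mm10 also names, read on the strand of the gene, from 250 bases before the annotated start to 50 bases after it, counting the start as the first of these 50. They are shown to compare starts that a region covers with starts that it leaves bare, and capitals mark matches to the motifs spelled out with the promoter results. The first 5 lie wholly inside the CD region: Rps23 at chr13:90922872-90923171 (+), Rps7 at chr12:28635904-28636203 (-), Nipa1 at chr7:56019551-56019850 (-), Mettl5 at chr2:69885566-69885865 (-) and Maff at chr15:79346371-79346670 (+). At Rps7 the DMSO region, of 220 bp, is narrower than the promoter shown. The last 2, Rpl27a at chr7:109518945-109519244 (+) and Eef2 at chr10:81176381-81176680 (+), lie outside their region, which begins farther into the gene, and hold a Flag-Rxra peak instead.
Rps23: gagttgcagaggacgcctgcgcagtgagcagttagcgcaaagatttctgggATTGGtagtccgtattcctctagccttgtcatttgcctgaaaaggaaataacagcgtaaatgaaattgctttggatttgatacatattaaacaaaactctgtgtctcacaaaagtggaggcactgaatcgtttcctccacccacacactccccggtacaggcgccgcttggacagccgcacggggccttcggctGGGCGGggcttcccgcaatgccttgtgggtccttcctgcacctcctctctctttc
Rps7: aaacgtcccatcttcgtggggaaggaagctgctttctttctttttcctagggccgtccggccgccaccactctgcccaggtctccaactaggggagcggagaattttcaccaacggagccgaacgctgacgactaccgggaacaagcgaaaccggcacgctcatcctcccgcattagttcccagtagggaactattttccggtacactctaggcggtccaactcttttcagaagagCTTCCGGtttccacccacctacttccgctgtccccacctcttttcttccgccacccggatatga
Nipa1: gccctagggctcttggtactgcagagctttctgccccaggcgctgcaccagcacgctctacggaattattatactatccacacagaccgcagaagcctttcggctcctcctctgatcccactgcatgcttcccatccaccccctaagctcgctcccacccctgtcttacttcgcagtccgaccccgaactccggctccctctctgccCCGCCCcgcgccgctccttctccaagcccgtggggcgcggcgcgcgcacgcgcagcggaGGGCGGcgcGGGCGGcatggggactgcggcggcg
Mettl5: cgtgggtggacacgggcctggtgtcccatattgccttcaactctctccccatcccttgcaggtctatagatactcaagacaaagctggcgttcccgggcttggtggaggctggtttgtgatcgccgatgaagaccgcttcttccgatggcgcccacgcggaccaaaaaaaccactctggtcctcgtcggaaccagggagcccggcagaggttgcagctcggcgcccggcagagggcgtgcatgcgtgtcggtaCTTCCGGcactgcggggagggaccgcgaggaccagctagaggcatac
Maff: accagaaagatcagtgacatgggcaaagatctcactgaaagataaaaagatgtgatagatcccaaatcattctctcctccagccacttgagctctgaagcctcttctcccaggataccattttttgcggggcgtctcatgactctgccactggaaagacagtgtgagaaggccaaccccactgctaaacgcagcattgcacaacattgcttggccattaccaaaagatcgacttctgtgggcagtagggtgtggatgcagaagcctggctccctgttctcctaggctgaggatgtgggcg
Rpl27a: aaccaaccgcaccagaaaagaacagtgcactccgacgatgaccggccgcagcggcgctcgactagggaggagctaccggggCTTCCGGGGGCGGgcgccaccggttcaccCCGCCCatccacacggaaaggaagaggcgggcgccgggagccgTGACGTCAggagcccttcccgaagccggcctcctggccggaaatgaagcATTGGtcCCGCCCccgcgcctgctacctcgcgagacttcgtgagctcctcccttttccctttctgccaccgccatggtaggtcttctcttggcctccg
Eef2: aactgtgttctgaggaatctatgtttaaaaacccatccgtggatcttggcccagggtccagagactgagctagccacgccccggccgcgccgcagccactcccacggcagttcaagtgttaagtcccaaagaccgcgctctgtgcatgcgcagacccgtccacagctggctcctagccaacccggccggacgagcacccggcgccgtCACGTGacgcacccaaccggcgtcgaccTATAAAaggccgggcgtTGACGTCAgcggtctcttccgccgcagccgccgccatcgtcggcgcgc
The G+C content of these windows was 52.3% at Rps23, 56% at Rps7, 67.7% at Nipa1, 62.3% at Mettl5, 50.3% at Maff, 67% at Rpl27a and 64.7% at Eef2. The observed over expected ratio of CpG was 0.683, 0.936, 0.919, 0.825, 0.263, 0.931 and 1.11 in the same order, so that Maff alone among the 7 falls under 0.6. Maff holds none of the motifs. At Mettl5 the printed start lies inside the gene as annotated from end to end, since promoter records follow 1 transcript. Rpl27a holds the most marked motifs: GC boxes, a CCAAT box, an ETS motif and a CRE.

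Regions of this kind most often stood at gene starts, and few of them covered the start base. The reference gave a strand for 17491 of the genes, which fixes the kind of gene end for 691 regions. Of these, 508 (73.5%, exact 95% interval 70.1 to 76.8) reached a start and 183 reached an end only. Stable gene-end regions with a Flag-Rxra peak reached a start in 96.8% of 1402 cases (95.7 to 97.6), and CD-only gene-end regions without Flag-Rxra in 53.6% of 3749 (52.0 to 55.2). Of the 508 regions at a start, 65 (12.8%) covered the start base itself, 152 lay wholly upstream and 291 wholly inside the gene. Their midpoints had a median position 410 bp inside the gene. Among the 1357 stable regions with Flag-Rxra at a start, 784 (57.8%) covered the start base, and the median midpoint lay 110 bp inside the gene. CD-only gene-end regions without Flag-Rxra covered it in 243 of 2010 cases (12.1%), a share like that of the stable regions without Flag-Rxra. All intervals cover counting error only, since neighbouring regions are not independent.

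The exclusion of Flag-Rxra acts on the region and not on the gene, and a Flag-Rxra peak often lay close by. The nearest peak of either replicate was at a median distance of 1193 bp, with quartiles of 303 and 9184 bp. In 411 of 865 regions (47.5%, 44.1 to 50.9) a peak lay elsewhere in the same 1 kb window. The same held for 28.2% of CD-only gene-end regions without Flag-Rxra (26.9 to 29.5), for 31.2% of the DMSO-only ones (29.7 to 32.8) and for 27.4% of all 43766 windows. These sets were not matched for their mix of starts and ends. A peak lay in the window at 311 of 508 chosen regions at a start and at 17 of 183 at an end only. At the level of genes, 615 of the 950 (64.7%) had a Flag-Rxra peak at a start or end, where 49.4% of all protein-coding genes had one. Of the 865 DMSO partners, counted once per CD region, 188 (21.7%) themselves overlapped a Flag-Rxra peak.

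Regions with and without a Flag-Rxra peak in the window lay at different places. This split was chosen after the values were seen. With a peak in the window, 311 of 328 regions of known strand (94.8%, 91.8 to 97.0) were at a start, and 12 of these 311 covered the start base. Their midpoints had a median position 532 bp inside the gene, and 222 of the 311 lay inside. The summit of the Flag-Rxra peak nearest to the region sat at the start, at a median of 16 bp upstream in replicate 1 (259 regions) and 36 bp upstream in replicate 2 (267 regions). It was within 250 bp of the start in 76.1% of the regions in replicate 1 and 75.7% in replicate 2. Since the rule removes any CD region that reaches the peak, it fixes part of this pattern. The 454 regions with no peak in the window reached 491 genes, or 2.24% of all. Of those with a known strand, 197 of 363 regions (54.3%, 49.0 to 59.5) were at a start and 166 at an end only. Of these 197, 53 (26.9%) covered the start base, and the median midpoint lay 88.5 bp inside the gene.

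**Figure D1:**
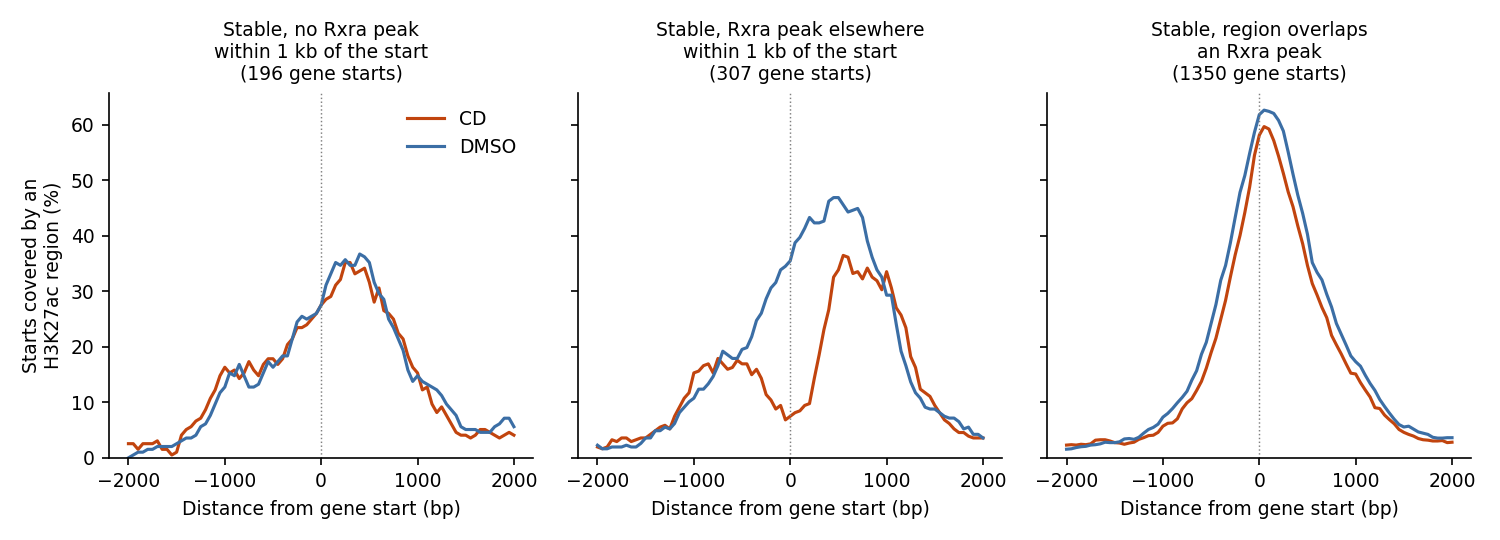
Share of gene starts covered by an H3K27ac region (vertical axis, percent) against the distance from the start (horizontal axis, bp, positive inside the gene), after CD and after DMSO, in 3 sets of starts with a stable region. With no Flag-Rxra peak in the window both lists cover 27.6% of 196 starts at the start base. With a peak elsewhere in the window CD covers 7.49% and DMSO 35.5% of 307 starts there. These starts were picked through a CD region that does not reach the peak, with no such limit on DMSO regions. Where the region overlaps a peak, CD covers 58.1% and DMSO 61.9% of 1350 starts.

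**Figure D2:**
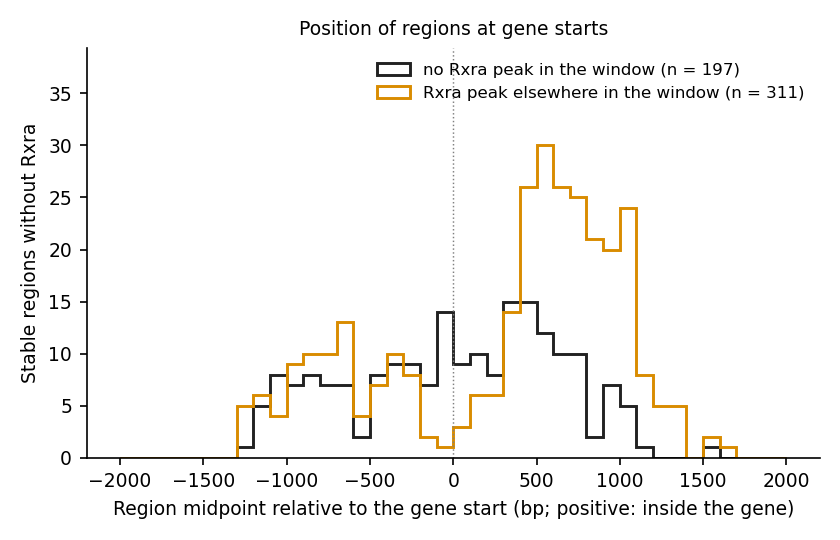
Midpoints of the 508 stable regions without Flag-Rxra at gene starts (horizontal axis, bp from the start, bins of 100 bp; vertical axis, number of regions), with and without a Flag-Rxra peak elsewhere in the window. The regions with a peak in the window are few near the start and most numerous about 0.5 kb inside the gene, whereas those with no peak also cover the start.

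Trim44, a member of the tripartite motif family on chromosome 2, had regions on both sides of a peak. After CD, 2 regions of 652 and 236 bp stood 1016 bp apart on both sides of its start. After DMSO a single region of 1344 bp (102400084 to 102401427) spanned that gap, which holds the Flag-Rxra peaks. These had folds of 6.71 in replicate 1 and 17.6 in replicate 2 over the authors' background. In all, 7 DMSO regions overlapped 2 chosen regions each, and 4 of the 7 also overlapped a Flag-Rxra peak. The rule removes CD regions that reach a peak and sets no such limit on DMSO regions, so it fixes part of this pattern. Ccl8, which encodes a chemokine, was the only gene with 3 chosen regions, of 566, 195 and 137 bp, and had no Flag-Rxra peak in those windows.

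The regions were narrow and weakly called in both lists. Their median width was 386 bp in CD and 494 bp in DMSO, with quartiles of 238 and 627 bp in CD and of 278 and 792 bp in DMSO. The authors' fold over background had a median of 3.07 in CD and 3.06 in DMSO, and their −log10 q a median of 1.47 in CD and 1.62 in DMSO, where both lists stop at 1.00. Only 45 regions reached a −log10 q of 2 in both lists, and 5 reached 5. Stable regions with Flag-Rxra were wider, at medians of 550 bp in CD and 672.5 bp in DMSO, with 164 of 1694 at a −log10 q of 2 in both lists. The bases shared by both lists had a median of 191 bp, or 58.1% of the CD region. Of the 865 regions, 218 lay wholly inside their DMSO region and 120 wholly held it.

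DMSO regions were the wider ones more often. Of the 865 regions, 362 (41.8%, 38.5 to 45.2) were wider in CD, 501 were wider in DMSO and 2 were equal. The CD region was at least 1.5 times as wide in 229 (26.5%), where the same held for 25.5% of all 14558 stable CD regions. The DMSO region was at least 1.5 times as wide in 358 (41.4%), against 34.6% of all stable regions. The share wider after CD is near that of the whole list, and the share wider after DMSO is above it, as is that of stable gene-end regions with Flag-Rxra, at 38.3%. With a Flag-Rxra peak in the window 33.1% of regions were wider in CD (28.6 to 37.9), and with none 49.8% were (45.1 to 54.5). The rule limits how far a CD region can reach toward a peak and sets no such limit on the DMSO region. Among the 411 regions with a peak in the window, 180 had a DMSO partner that overlapped a Flag-Rxra peak. When DMSO regions were counted in place of CD regions, 48.4% were wider in CD.

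**Figure D3:**
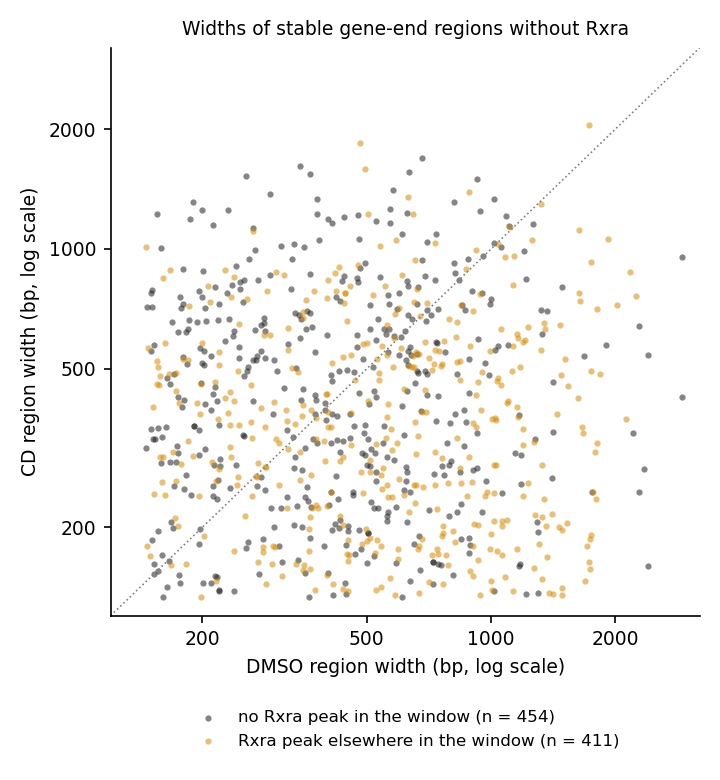
Width of the CD region (vertical axis) against the summed width of its DMSO partners (horizontal axis), both in bp on log scales, for the 865 stable gene-end regions without Flag-Rxra. The dotted line marks equal widths, 362 regions lie above it and 501 below it, and orange points are regions with a Flag-Rxra peak elsewhere in the window.

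Cytosolic ribosomal protein genes, which encode the protein part of the ribosome, had such a region at the highest share of the 21 gene lists examined, which were chosen with earlier results of these data known. A stable region without Flag-Rxra lay at 22 of 79 (27.8%, 18.3 to 39.1), where 4.34% of all protein-coding genes had one. The 22 genes were 13 with an Rpl and 8 with an Rps symbol, and Fau, whose product is processed to a small subunit protein. They held 23 regions, of 139 to 1111 bp in CD (median 495 bp) and 196 to 1767 bp in DMSO (median 527 bp). Folds ran from 2.46 to 3.67 in CD and from 2.39 to 3.58 in DMSO. None of the 23 exceeded 2.75 in CD or 3.53 in DMSO on the −log10 q scale. Acetylation of this family was itself widespread, with a CD region at 63 genes (79.7%) and a DMSO region at 65 (82.3%). Among all protein-coding genes these shares were 38.3% and 35.8%. A stable CD region, with or without Flag-Rxra, lay at 42 of the 79, against 13.3% of all genes. Of those 42 genes 52.4% had a region without Flag-Rxra, where the share among all genes with a stable region was 32.6%. A Flag-Rxra peak of either replicate lay at 71 of the 79, where 49.4% of all genes had one. A chosen region with no Flag-Rxra peak in the window lay at 10 of the 79, and at 2.24% of all genes.

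Within the ribosomal genes both arrangements were seen. At Rps23 (chromosome 13, 90922774 to 90923475) the CD region of 702 bp and the DMSO region of 700 bp shared 369 bp, and the CD midpoint lay 2.5 bp from the start. The nearest Flag-Rxra peak was 31901 bp away. At Rps7 (chromosome 12, 28635656 to 28636382) a CD region of 727 bp wholly held a DMSO region of 220 bp, with the nearest Flag-Rxra peak at 20721 bp. Both starts are those printed above, inside the CD region.

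At Rpl27a (chromosome 7, 109519299 to 109520259), CD and DMSO regions of 961 and 1138 bp shared 625 bp, with q values of 2.32 in CD and 1.97 in DMSO as −log10. Here the Flag-Rxra summits lay upstream of the start, with folds of 17.2 in replicate 1 and 15.6 in replicate 2, and the CD midpoint was 584 bp inside the gene. The same order, with the Flag-Rxra peak at the start and the region inside the gene, was found at Rps19, where a CD region of 1111 bp held a DMSO region of 266 bp and the Flag-Rxra folds were 11.8 and 14.5. It was also found at Rpl37, with a CD region of 174 bp inside a DMSO region of 1035 bp and Flag-Rxra folds of 17.8 and 18.5. Of the 23 ribosomal regions, 13 had a Flag-Rxra peak in the window. Of the 16 at a start of known strand, 12 had their midpoint inside the gene. The regions at Rpl27a and Rps2 contain the small nucleolar RNA genes Snora3 and Snora64. Ribosomal protein genes have many processed copies in the genome, and the sources used here do not say how reads with several matches were treated.

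The other housekeeping lists had shares whose intervals hold the background. Translation initiation and elongation factors had a stable region without Flag-Rxra at 1 of 42 genes, although 19 of the 42 had a stable CD region of some kind. That gene was Eef2, the factor that moves the ribosome along the message, with a CD region of 1393 bp and a DMSO region of 882 bp that shared 775 bp. Its Flag-Rxra folds at the start were 5.35 and 9.95. Oxidative phosphorylation genes had one at 3 of 68, proteasome subunits at 2 of 32, and RNA polymerase II and its general factors at 2 of 44. The proteasome genes were Psmb4, with a CD region of 464 bp wholly inside a DMSO region of 1411 bp, and Psmb7, with 156 bp inside 673 bp. The 2 polymerase genes were Polr2d, a subunit, and Ercc2, a TFIIH helicase, with 370 bp in CD and 320 bp in DMSO. Splicing factors and hnRNPs had one at 6 of 54 genes (11.1%, 4.19 to 22.6), among them Sf3b6, Sf3a1, Hnrnpl and Srsf6, an interval that still holds the background of 4.34%.

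**Figure D4:**
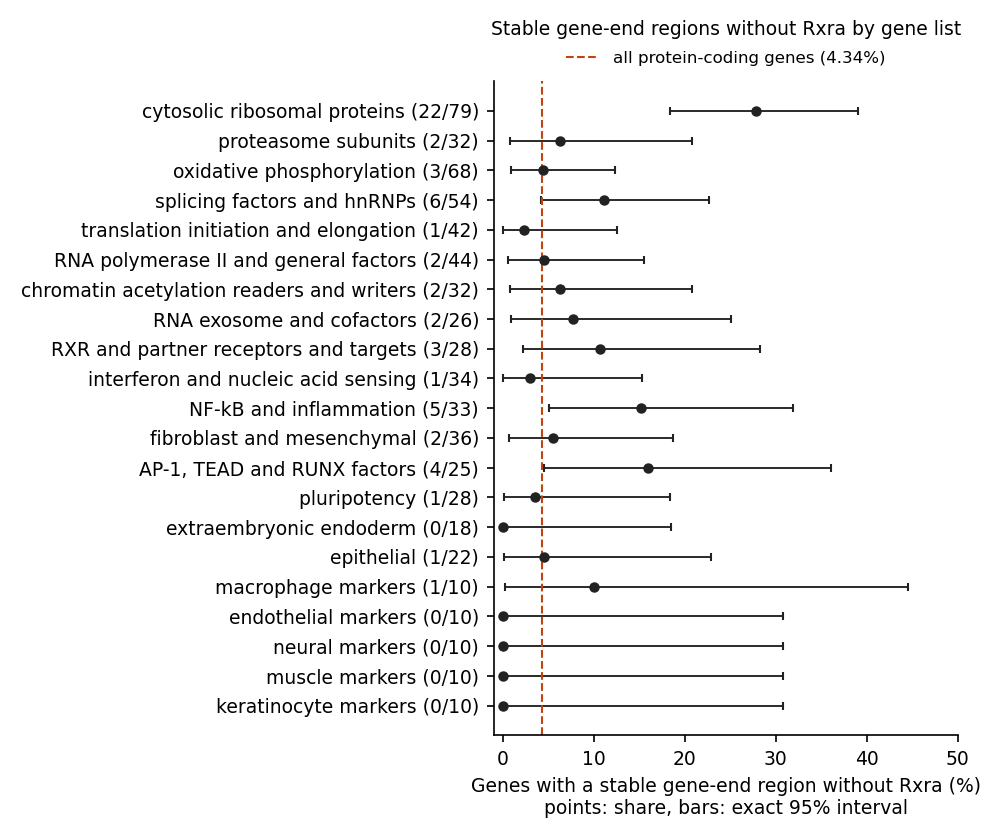
Share of the genes of each list with a stable gene-end region without Flag-Rxra (horizontal axis, percent; points with exact 95% intervals, counting error only). The dashed line marks 4.34%, the share of all protein-coding genes, and the interval of the ribosomal protein genes (18.3 to 39.1) lies farthest above it.

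Inflammation genes and AP-1, TEAD and RUNX factors had the next highest shares after the ribosomal genes, and both intervals lie above the 4.34% of all genes, on 5 and 4 genes. NF-κB and inflammation genes had one at 5 of 33 (15.2%, 5.11 to 31.9), namely Traf6, Chuk, Ptgs2, Nfkbiz and Ccl7. Traf6, a ubiquitin ligase of Toll-like and interleukin-1 receptor signalling, had 703 bp in CD and 866 bp in DMSO over its start, with 440 bp shared. Chuk, a kinase of the IκB kinase complex, had 358 bp in CD and 409 bp in DMSO. At Ptgs2, Nfkbiz and Ccl7 the lists shared only 38, 38 and 28 bp. AP-1, TEAD and RUNX factors had one at 4 of 25 genes (16.0%, 4.54 to 36.1). Maff, a small Maf factor, had nearly equal regions of 679 bp in CD and 672 bp in DMSO that shared 664 bp across an annotated start. Junb had 430 bp in CD inside 921 bp in DMSO, and Runx1 had 1336 bp in CD around 379 bp in DMSO at its end. Tead1 was the other gene. Any stable CD region, with or without Flag-Rxra, lay at 9 of the 33 inflammation genes (27.3%) and 9 of the 25 factor genes (36%). Among all genes that share was 13.3%. A chosen region with no Flag-Rxra peak in the window lay at 3 inflammation and 2 factor genes, and at 491 of all 21883 genes.

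The intervals of the lists in this paragraph all hold the 4.34% of all protein-coding genes. Interferon and nucleic acid sensing genes had a stable region without Flag-Rxra at 1 of 34 (2.94%, 0.0744 to 15.3). This was Irf9, a subunit of the ISGF3 transcription factor, with 415 bp in CD and 503 bp in DMSO. RNA exosome genes and cofactors had one at 2 of 26 (7.69%, 0.946 to 25.1). These were Exosc9, with 164 bp in CD inside 273 bp in DMSO, and Ttc37, a subunit of the Ski complex that feeds RNA to the cytoplasmic exosome, with 801 bp in CD around 215 bp in DMSO. Among RXR, its partners and their targets the count was 3 of 28 (10.7%, 2.27 to 28.2). Tgm2, a transglutaminase induced by retinoic acid, had 699 bp in CD and 902 bp in DMSO. The other 2 were Dhrs3, a retinaldehyde reductase, and the thyroid hormone receptor gene Thra. Acetylation enzymes and readers had 2 of 32 (6.25%, 0.766 to 20.8), among them Brd7, a bromodomain gene, with 167 bp in CD inside 596 bp in DMSO.

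Of 36 fibroblast and mesenchymal genes, Pdgfrb and Twist2 had one (5.56%, 0.68 to 18.7), with 110 and 30 shared bases. That interval holds the 4.34% of all genes, as do those of the other lists in this paragraph. Of 28 pluripotency genes it was Klf5, with 142 bp in CD inside 542 bp in DMSO, and of 22 epithelial genes it was the tight junction gene Ocln, at its end. Spi1, a macrophage transcription factor, was the only marker of the other cell types with such a region, at 165 bp in CD and 450 bp in DMSO. No gene had one among 18 extraembryonic endoderm genes, where the exact interval reaches 18.5%, or among 10 each of endothelial, neural, muscle and keratinocyte markers, where it reaches 30.8%.

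Symbol families of at least 60 genes were set beside the 4.34% of all genes with a stable region without Flag-Rxra and the 13.3% with any stable CD region. Zfp genes, most of them encoding zinc finger proteins, had a stable region without Flag-Rxra at 36 of 397 (9.07%), and Slc transporter genes at 22 of 375 (5.87%). Any stable CD region lay at 94 of the Zfp and 48 of the Slc genes. Genes with an Atp symbol had one at 11 of 85 (12.9%), among them Atp6v1h, Atp6v1c1 and Atp6v1b2, subunits of the proton pump of lysosomes, and the copper transporter gene Atp7b. Any stable CD region lay at 26 of the 85. Olfactory receptor genes had one at 2 of 1110, and Vmn vomeronasal receptor genes at 0 of 355. Rab genes had one at 0 of 69, although 16 of them had a stable CD region. The neighbours Zfp52 and Zfp53 share a region, and related copies of such genes can share reads.

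The regions with the highest −log10 q in both lists were exceptions in an otherwise weak set. The first lay in Uvrag, an autophagy gene (chromosome 7, 99139955 to 99140466), where −log10 q was 59.3 in CD and 34.6 in DMSO. It had 512 bp in CD and 220 bp in DMSO, but the lists shared only 35 bp there. Oasl1, an interferon-induced gene, followed with 17.6 in each list, and its CD region of 163 bp lay inside 501 bp in DMSO. Gm32584 had 17.1 in CD and 21.2 in DMSO, and Mid1 on chromosome X had 11.8 and 19.1, at regions of 469 bp in CD and 468 bp in DMSO near the end of the gene. Slc26a6, an anion exchanger gene, had 6.40 and 7.86. From the sixth on, at Paip1, a translation regulator gene, values were below 6 in CD. The others of the 12 were Gm40369, Rasal2, Pcf11, Gm36028, Elk3 and Atp6v1h.

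The 12 regions with the most shared bases were broad in both lists. Ptprk, a receptor tyrosine phosphatase gene, had 1298 bp in CD wholly inside 1320 bp in DMSO (chromosome 10, 28074857 to 28076154 in CD), with a replicate 1 Flag-Rxra peak 13 bp away. Tm9sf4 had 1140 bp in CD and 1106 bp in DMSO, of which 1061 bp were shared, and its nearest Flag-Rxra peak was 35831 bp away. Rbm39, a splicing regulator gene, had 1031 bp in CD inside 1042 bp in DMSO. At Nipa1, a magnesium transporter gene whose promoter is printed above, regions of 1035 bp in CD and 1015 bp in DMSO shared 992 bp over the start. The shared bases at the other 8, Gm3435, Aen, Borcs6, AY761185, Trpc4ap, Sars, Clrn3 and Slc19a2, ran from 877 to 1063 bp. Gm3435 and AY761185 belong to groups of related genes in which reads can match several places.

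Width differed most at 12 regions, 1 of which is also among those with the most shared bases. The largest excess after CD was 1368 bp upstream of Zfp143, a transcription factor gene, with 1850 bp in CD and 482 bp in 2 DMSO regions. Carmil3 had 1526 bp in CD and 255 bp in DMSO, Mettl5, a ribosomal RNA methyltransferase gene, 1614 and 344 bp, and Mga, a MAX partner gene, 1545 and 365 bp. Nanos3 and Tmem270 completed that set. The largest excess after DMSO was at AY761185, with 424 bp in CD and 2904 bp in DMSO. Rtp4, an interferon-induced gene, had 160 bp in CD and 2399 bp in DMSO, Pdcd6ip, an endosomal sorting gene, had 280 and 2346 bp, and 1700029H14Rik had 346 and 2203 bp. The other 2 were 9030025P20Rik and a second AY761185 region, the one already named for its shared bases. Both AY761185 regions, of 424 and 956 bp in CD, lay in the same DMSO region of 2904 bp. The DMSO region at Rtp4 also overlapped 2 chosen regions, of 160 and 542 bp in CD. That at 9030025P20Rik overlapped 2 as well, of 246 and 641 bp. At these genes each excess sets 1 CD region beside the whole DMSO region.

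Promoter sequence was not used by the rule. The share of CpG-rich promoters lay between that of CD-only regions and that of stable regions with Flag-Rxra, which was not so for every motif. Of 469 regions within 1 kb of a listed start, 315 (67.2%, 62.7 to 71.4) had a CpG-rich promoter there, meaning a ratio of observed to expected CpG of at least 0.6 and at least 50% G+C. The share was 85.3% of 1336 stable regions with Flag-Rxra (83.3 to 87.2) and 53.8% of 1800 CD-only regions without Flag-Rxra (51.4 to 56.1). Within the chosen regions it was 79.6% of 294 with a Flag-Rxra peak in the window (74.5 to 84.0) and 46.3% of 175 with none (38.7 to 54.0). These shares count regions. With each promoter counted once, 64.7% of the 465 promoters of chosen regions were CpG-rich, against 45.1% of all 21262 promoters of protein-coding genes.

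Motif letters were searched on both strands in the promoter nearest to each region. GC boxes (GGGCGG) were in 61.3% of 465 promoters of stable regions without Flag-Rxra (56.7 to 65.7), in 70.0% of 1330 with Flag-Rxra and in 46.2% of all promoters. ETS letters (CCGGAAG) were in 18.7% (15.3 to 22.6), against 23.5% with Flag-Rxra and 11.6% of all. The E-box CACGTG was in 13.1%, against 12.03% with Flag-Rxra, 9.51% of CD-only regions and 7.84% of all promoters. TATAAA was in 7.53%, against 7.37% with Flag-Rxra and 12.6% of all, and CCAAT in 34.0%, against 39.4% and 38.2% of the same sets and 37.7% of CD-only regions. The nuclear receptor half-site AGGTCA was in 11.4% (8.66 to 14.6), against 11.4% with Flag-Rxra and 14.7% of all. A direct repeat of AGGTCA with 1 base between the copies, a form that RXR dimers bind, was in 0 of 465, against 2 of 1330 and 10 of 21262. The remaining letters were TGACGTCA (CRE) in 3.23%, TGACTCA (AP-1) in 5.16%, and GGAATG (TEAD) in 11.8%, against 2.23%, 4.66% and 13.6% of all promoters.

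**Figure D5:**
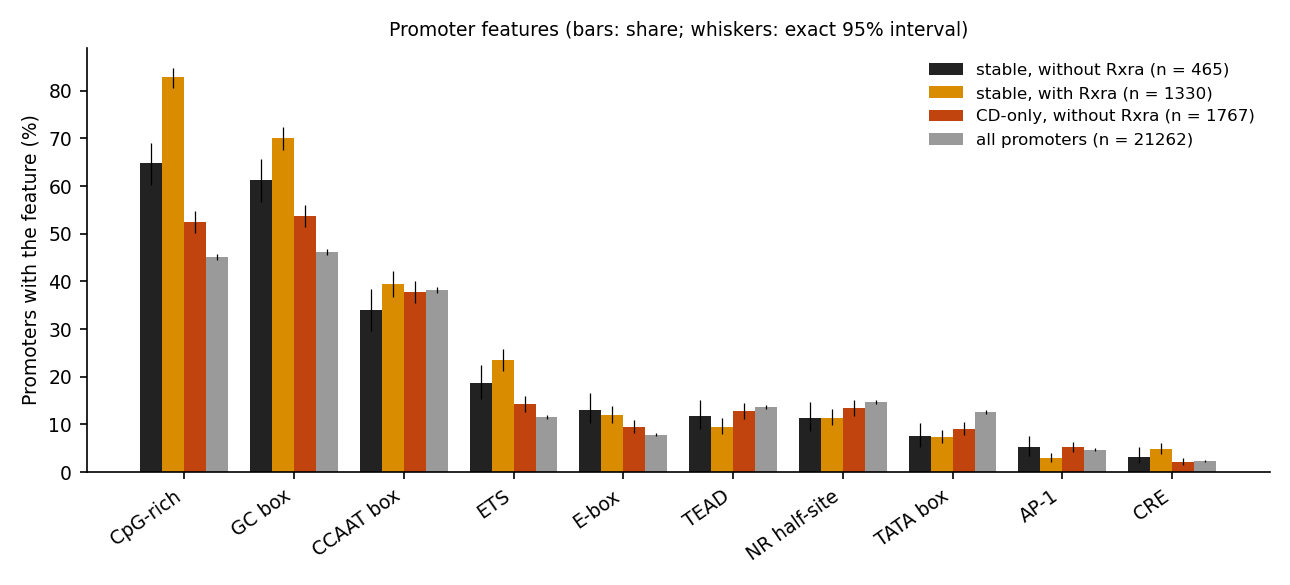
Share of promoters (vertical axis, percent) that are CpG-rich or hold each motif, for stable regions without Flag-Rxra, stable regions with Flag-Rxra, CD-only gene-end regions without Flag-Rxra, and all promoters of protein-coding genes. Bars give the share and whiskers its exact 95% interval, and CpG-rich promoters make up 64.7%, 82.8%, 52.4% and 45.1% of the 4 sets when each promoter is counted once.

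Regions at gene ends lay on both sides of the end. Of the 183 regions at an end only, 17 covered the end base, 93 had their midpoint inside the gene and 90 outside it, and 1 lay within 1 kb of another listed start. Examples were Borcs6, where 1011 bp in CD and 1057 bp in DMSO shared 979 bp across the end, and Elk3, with 262 bp in CD inside 623 bp in DMSO. The X chromosome held 11 regions, or 1.14 for each 100 protein-coding genes, and the autosomes 854, or 4.13. The whole CD list also had fewer regions on X, with 131 for each 100 genes against 499 on autosomes. Stable gene-end regions with Flag-Rxra numbered 1.86 for each 100 genes on X and 8.11 on autosomes.

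Some regions lay close to a limit of the rule. At the 1 kb limit, Asxl1 was just inside, with its region 999 bp from the gene end, and Cul1 just outside, at 1002 bp. Asxl1 had 316 bp in CD and 355 bp in DMSO, and Cul1 had 1109 and 500 bp. In 83 regions the lists shared 50 bp or less, and the smallest overlap was 2 bp. The nearest Flag-Rxra peak that did not overlap lay 4 bp away.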

How the data were processed

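H3K27ac and Flag-Rxra CUT&Tag peak lists were used. Per the submitters' processing notes, the authors used build mm10 and the tools MACS2 2.1.2, Bowtie2 2.2.5, deepTools 3.4.3 and fastp 0.20.1, named without roles or options. No source used here gives a control library or how replicates were combined. The fold (a ratio over background), the −log10 q and the integer score of each peak are the authors' deposited values. The score was not used, and the others describe or filter regions within a list. The lowest q in the lists, as −log10, was 1.00 for H3K27ac and 5.00 for Flag-Rxra, so absence of a peak is not absence of signal. Signal tracks were not analysed here.

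Overlaps were computed with Python 3.11.15, numpy 2.4.6 and pandas 2.3.3, intervals (Clopper-Pearson, 95%) with scipy 1.17.1 and figures with matplotlib 3.10.9. Overlap code was checked on simulated regions. Genes came from RefSeq GRCm38.p6, and promoter records gave the strand. A region that reached a start and an end was counted at a start. Named regions were the 12 with the highest −log10 q in both lists, the 12 with the most shared bases, the 6 widest in excess in each treatment, up to 4 genes per list and those nearest the 1 kb limit. Ccl8, Trim44, Atp genes, further list members and the printed promoters were chosen after their values were seen. Members and lists were chosen with earlier results of these data known. No test across samples was possible with 1 list per treatment. Some genes that the rule reached are not reported here.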

Additional observations from a re-analysis of the deposited data

Results flagged for a closer look

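Comparisons covered the assembled nuclear chromosomes. Outside them, on mitochondrial DNA or contigs without a place, lay 126 CD and 106 DMSO regions. Of the CD regions, 104 overlapped a DMSO region, which drew attention because no comparison used them and no control library was used here.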

How the results depend on the processing

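Against 865 regions, 73.5% at a start, 41.8% wider in CD, 67.2% CpG-rich and 950 genes, the settings below moved at least 1 value, except leaving out Flag-Rxra replicate 2 alone. Overlap of 50% of both regions left 248 regions at 275 genes, with 67.5% at a start and 46.4% wider in CD. A −log10 q of 2 in both lists left 45 regions at 47 genes, with 67.6% at a start and 57.1% CpG-rich. Windows of 500 bp and 2 kb gave 499 and 1352 regions at 542 and 1492 genes. Excluding only on peaks shared by both Flag-Rxra replicates put 78.9% at a start. Counting DMSO regions made 48.4% wider in CD. Excluding on any Flag-Rxra peak in the window, a setting chosen after seeing the data, left 454 regions at 491 genes, with 54.3% at a start, 49.8% wider in CD and 46.3% CpG-rich. Without Flag-Rxra replicate 1 the shares moved to 79.2% at a start and 72.6% CpG-rich, while the 1155 regions stayed within 1.5 times of 865. Without replicate 2 no value moved, with 996 regions, 75.7% at a start and 68.4% CpG-rich. In every setting run fewer than 50% were wider in CD and more than 50% were at a start. With no Flag-Rxra peak in the window, however, the intervals of both shares (45.1 to 54.5 and 49.0 to 59.5) held 50%. The cause of these moves was not tested beyond the construction of each setting.

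No paired analysis was possible because each H3K27ac treatment has 1 list for both replicates. No replicate spread or depth stands behind any value, and the lists stop at a threshold, so a region listed in 1 treatment alone can be a near miss in the other.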

Other observations

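Small RNA genes lay wholly or partly inside 5 of the regions. Besides Snora3 at Rpl27a and Snora64 at Rps2 these were a further small nucleolar RNA gene at Rpl6, the tRNA gene n-TLcag6 at Fcgr3 and Mir6973b at Gfra4.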
